A study of Glycine max with 4 samples.

Results

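The regions described here are the places in the interior of the soybean chromosomes where ABI3 was called bound in maturing embryos. ABI3 is the name that the submitters' file naming gives to the product of GLYMA.08G357600. A called region was taken as interior where its summit, the position of highest signal, lay between 20% and 80% of the length of its chromosome, with the last called position standing in for that length. The list of biological replicate 2 held 436 such regions, of 1436 with Chr names and 2460 in all. The other 1000 regions with Chr names, in the outer 20% at either end, are the outer regions. Position alone chose the interior regions, so their number is a description and not a result.

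ABI3 is a transcription factor of the B3 family. In Arabidopsis and other seed plants it binds the RY element through its B3 domain, works with bZIP factors in abscisic acid signalling, and switches on genes for storage proteins, oil-body proteins and desiccation tolerance while the embryo fills its reserves. Soybean chromosomes are known to carry most of their genes toward the ends, and a repeat-rich, gene-poor stretch with little recombination around the centromere.

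The data came from chromatin immunoprecipitation followed by sequencing (ChIP-seq), in which DNA crosslinked to a protein is pulled down with an antibody and sequenced. The single group was embryos of Williams 82 soybeans at the mid-maturation stage, dissected from seeds of 200 to 250 mg, with no genotype or treatment to set against it. The antibody recognised a peptide from the protein of GLYMA.08G357600, and no sample that lacks this protein was analysed here, so its specificity could not be checked. The group held 4 samples, as 2 biological replicates with 2 technical replicates each, and 1 peak list of each biological replicate was used. Whole embryos mix cell types, and binding in fewer cells cannot be told apart from weaker binding in each cell.

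A region in these lists rests on few fragments. Its fragments are the whole number of sequenced fragments at its summit, recovered from the deposited values. Over all rows the number was 16 to 215 (replicate 2) or 17 to 240 (replicate 1), and the total number of reads is not in the lists. The list of replicate 1 was shorter, with 648 regions under Chr names against 1436 in replicate 2, which bears on each count that uses both. Rows with Gm names, a second set of chromosome names that may list some places again, and scaffold rows were left out. A place that replicate 1 called under a Gm name alone therefore counts here as not called. The sources used here give neither the genome build nor the genes at these positions, so the regions below are named by position, with no gene and no sequence. With 1 list for each biological replicate, no test over samples was run, and regions are not replicates. The intervals are exact (Clopper-Pearson) 95% binomial intervals for shares and 95% Poisson intervals for fragments, and both cover counting error only.

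Interior regions were sparse, and sparsest at the middle of the chromosomes. In replicate 2 the interior held 0.772 regions per Mb and the outer parts 2.65, a ratio of 0.291. In replicate 1, divided at the same positions, the interior held 0.327 regions per Mb and the outer parts 1.23, a ratio of 0.266. The interior share of the regions with Chr names was 30.4% in replicate 2 (436 of 1436, 95% interval 28.0 to 32.8%) and 28.5% in replicate 1 (185 of 648, 25.1 to 32.2%). Both shares lay below the 60% of the chromosome length that the interior spans. Where genes and alignable sequence lie was not analysed here, so an even spread along the chromosome is not a chance level for this factor.

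The number of regions dropped gradually toward the middle. With each chromosome divided into 10 equal bins, the 6 interior bins of replicate 2 held 115, 73, 51, 41, 51 and 105 regions in order along the chromosome. The bins next to the interior held 212 below it and 196 above it, and the outermost bins held 267 and 325. The core from 40% to 60% thus held 92 interior regions, or 21.1% of them, and the flanks held the other 344. Replicate 1 showed the same shape, with 45, 29, 23, 17, 28 and 43 interior regions over the same bins. The bin with the fewest regions was the one from 50% to 60% in both lists.

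**Figure D1:**
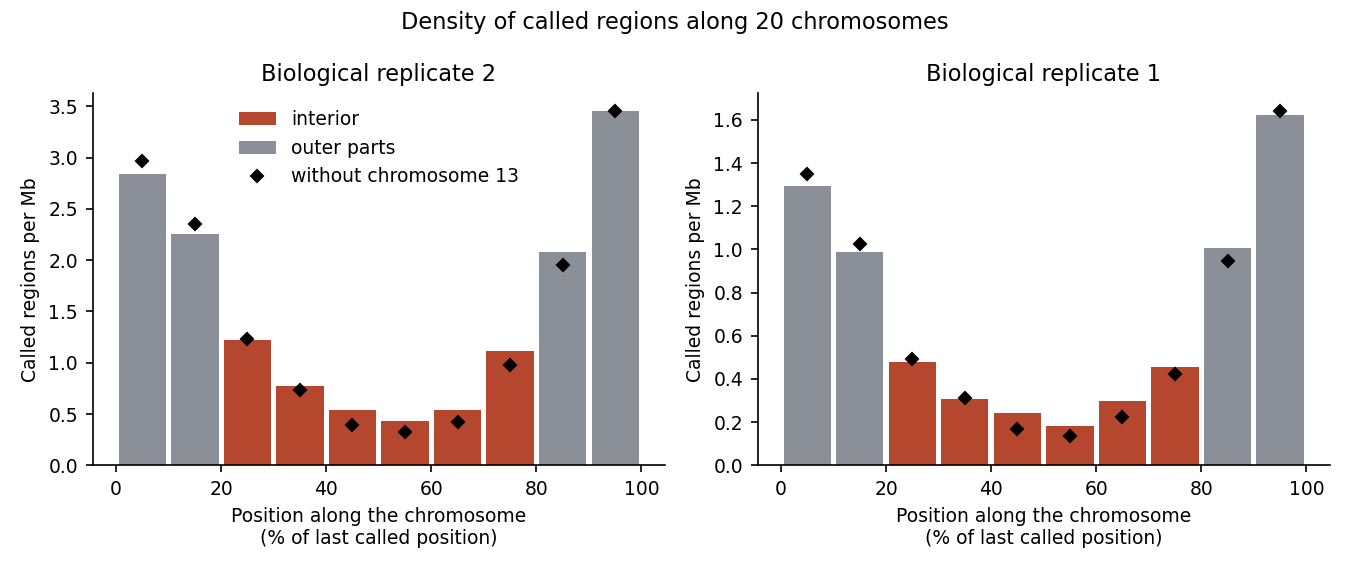
Called regions per Mb (vertical axis, with a scale of its own for each panel) in 10 bins of position along 20 chromosomes (horizontal axis, % of the last called position), with interior bins in red, outer bins in grey and diamonds for the values without chromosome 13. The bin from 50% to 60% was lowest in both replicates, at 0.435 regions per Mb in replicate 2 and 0.181 in replicate 1.

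Chromosome 13 was the only 1 of the 20 chromosomes with a denser interior than outer part. It held 70 interior regions in replicate 2, or 16.1% of the 436, against 7 to 35 on each of the other chromosomes. Its interior held 2.55 regions per Mb and its outer parts 2.13. The outer value averages a nearly empty lower end and a dense upper end of this chromosome, as given below. Replicate 1 gave 1.02 regions per Mb in its interior and 0.985 in its outer parts. On the other 19 chromosomes the interior was the sparser part in both replicates. The share of regions with Chr names that lay in the interior was 64.2% on chromosome 13 in replicate 2 (95% interval 54.5 to 73.2%). The highest share on any other chromosome in that list was 37.3%, on chromosome 20 (24.1 to 51.9%). In replicate 1 the share on chromosome 13 was 60.9% (45.4 to 74.9%). Both intervals of chromosome 13 hold the share of the chromosome length that the interior spans. Equal density in the interior and the outer parts of chromosome 13 is thus not excluded.

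The interior regions of chromosome 13 did not thin out at the middle. From 20% to 80% of its length its 6 bins held 5, 7, 16, 12, 13 and 17 regions in replicate 2. The core from 40% to 60% of this chromosome held 28 of the 92 core regions of the whole list. The same bins held 1, 1, 8, 5, 8 and 5 regions in replicate 1. Both lists thus placed few regions of chromosome 13 between 20% and 40% and more from 40% onward. Among the outer regions of this chromosome in replicate 2, only 2 lay below 20% of its length and 37 above 80%. The bin from 80% to 90% held 21 regions and the last bin 16. The interior of chromosome 13 was thus denser than its lower end but not denser than its upper end. Without chromosome 13 the ratio of interior to outer density in replicate 2 was 0.254, and leaving out any other single chromosome gave 0.285 to 0.303.

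Regions on chromosome 13 were like those of the other interiors in strength. Fold enrichment, the authors' ratio of ChIP signal to local background at the summit, had a median of 6.34 over its 70 regions (quartiles 5.37 and 7.65) and of 6.20 over the 366 regions of the other interiors (5.19 and 8.27). Replicate 1 called 27 of the 70 (38.6%, 95% interval 27.2 to 51.0%) and 148 of the 366 (40.4%, 35.4 to 45.7%), against 42.3% of all regions of replicate 2 with Chr names. Folds ran over almost the same range, 3.29 to 18.6 on chromosome 13 and 3.27 to 18.4 in the other interiors. The median distance to the nearest region was 78.3 kb on chromosome 13 and 222 kb in the other interiors.

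After chromosome 13, the densest interiors in replicate 2 were those of chromosomes 17 and 11, and the sparsest were those of chromosomes 4, 1 and 18. Chromosome 17 had 32 interior regions, or 1.30 per Mb, and chromosome 11 had 25, or 1.21 per Mb. At the other end, chromosome 4 had 7 interior regions (0.225 per Mb), chromosome 1 had 10 (0.295) and chromosome 18 had 15 (0.432). The outer parts of these 3 chromosomes held 2.70 regions per Mb on chromosome 4, 1.94 on chromosome 1 and 2.59 on chromosome 18, against a median of 2.68 over the 20 chromosomes. Of the 3, chromosome 1 was thus sparse in its outer parts too. In replicate 1 the densest after chromosome 13 was chromosome 8 (0.560 per Mb), ahead of chromosomes 11 (0.533) and 17 (0.526), and the sparsest was chromosome 7 (0.0753). The order of the 20 interiors by density was similar in both lists, with a Spearman rho of 0.90 (0.88 over the 19 chromosomes other than 13). This rho is a description, since the lists share most of the regions of replicate 1.

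**Figure D2:**
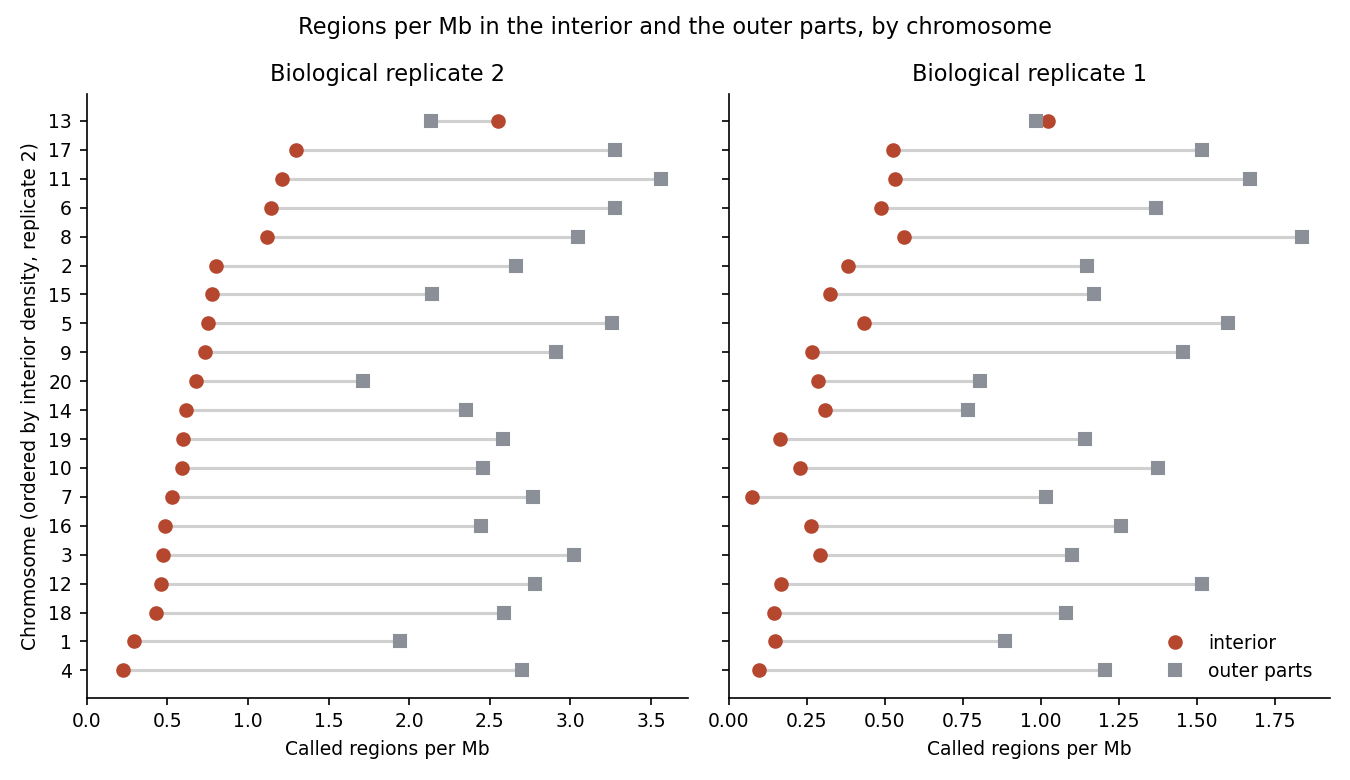
Called regions per Mb (horizontal axis, with a scale of its own for each panel) in the interior (red circles) and the outer parts (grey squares) of each of the 20 chromosomes (vertical axis), ordered by interior density in replicate 2. The circle lies right of the square on chromosome 13 alone, with 2.55 against 2.13 in replicate 2.

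Long stretches of the interior held no called summit under Chr names. The longest one in replicate 2 was 17.3 Mb on chromosome 12, from 33.8% to 77.5% of its length. Chromosome 4 had one of 15.0 Mb, chromosome 18 one of 13.7 Mb and chromosome 1 one of 13.5 Mb. The stretch of chromosome 1 starts at the 20% bound of the interior, so its length is cut by that bound. Over the 20 chromosomes the longest empty stretch had a median of 7.44 Mb, and the shortest of these was 2.39 Mb, on chromosome 13. On chromosomes 4, 12 and 18 no region of replicate 2 lay in the core from 40% to 60%. In all 4 of the long stretches named above, replicate 1 had no called summit either. A stretch without a called region is not shown to be unbound, since the fewest fragments at any called summit were 16. The rows with Gm names, 1015 in replicate 2 and 287 in replicate 1, were not searched for these stretches.

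Among called regions, interior and outer ones had nearly the same strength. The fewest fragments in replicate 2 were 17 in interior and 16 in outer regions, so weaker binding in either part does not enter these values. In replicate 2 the median fold enrichment was 6.20 for interior and 6.20 for outer regions, with quartiles of 5.23 and 8.11 for interior and 5.17 and 8.06 for outer regions. In replicate 1 the medians were 6.18 for interior and 5.97 for outer regions. The median summit held 30 fragments in interior and 30 in outer regions in replicate 2, and 29 in interior and 28 in outer regions in replicate 1. The background was 3.84 at both quartiles and the median of either set in replicate 2, and 3.69 in replicate 1. For most regions fold and fragments are thus nearly the same measure. Taken chromosome by chromosome in replicate 2, the interior median fold was the higher in 8 chromosomes, the lower in 11 and tied in 1. In replicate 1 it was the higher in 12 and the lower in 7. The direction thus differed between the lists, and no difference in strength between the called regions of the interior and of the outer parts is shown.

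The highest single folds were in the outer parts, which hold more regions. The highest fold enrichment was 18.6 in the interior and 30.0 in the outer parts in replicate 2, and 13.4 in the interior and 19.6 in the outer parts in replicate 1. Below these extremes the shares were close. A fold of at least 10 was reached by 53 interior regions (12.2%) and 124 outer regions (12.4%) in replicate 2, and by 12 interior (6.49%) and 36 outer regions (7.78%) in replicate 1. Of the 100 strongest regions with Chr names in replicate 2, by q-value, 32 were interior (95% interval 23.0 to 42.1%), and of the 20 strongest 5 were (8.66 to 49.1%). Both intervals hold the 30.4% that interior regions make of the list.

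**Figure D3:**
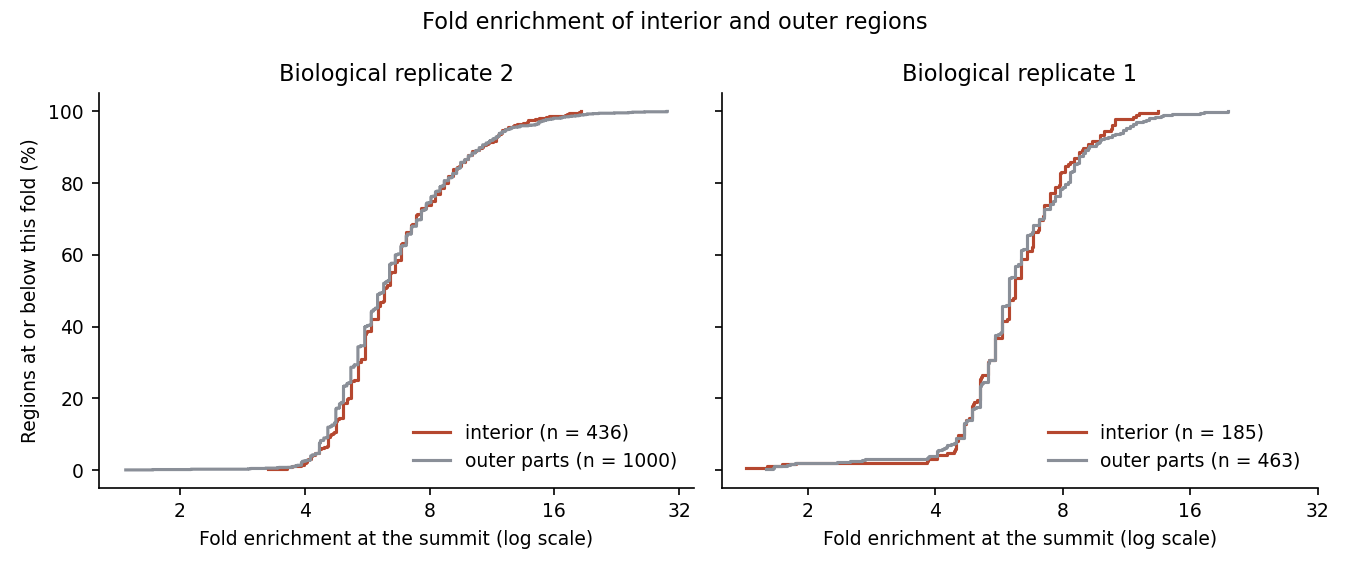
Share of regions at or below a given fold enrichment (vertical axis, %) against that fold (horizontal axis, log scale) for interior (red) and outer (grey) regions in each replicate. The curves run together, with interior and outer medians of 6.20 and 6.20 in replicate 2 and of 6.18 and 5.97 in replicate 1.

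The widths of interior regions were close to those of outer regions. The median width was 308 bp in the interior and 316.5 bp in the outer parts in replicate 2, and 294 bp in both in replicate 1. The shortest region was 220 bp in either set and either replicate. Width went with the number of fragments. Interior regions of 21 to 25 fragments were 248 bp wide at the median in replicate 2, and those of 41 to 60 fragments 416 bp. Outer regions of the same classes had 253 bp and 413.5 bp. The widest interior region was at 10715529 to 10716720 on chromosome 2, with 1192 bp, 70 fragments in replicate 2 and 55 in replicate 1. The next were a region of 729 bp at 23958867 to 23959595 on chromosome 3, with 50 and 28 fragments in replicates 2 and 1, and one of 724 bp on chromosome 13, described next.

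The leading interior regions were taken from those called in both replicates. The 10 named here had the best value of the worse of their ranks by q-value in the lists, so a call in both is part of the choice. They lay on 8 chromosomes, and 8 of them lay outside the stretch from 30% to 70% of the length. Of all 436 interior regions, 216 lay inside that stretch. With 10 regions, no preference of the leading regions for the flanks is shown. Their fold enrichment was 11.9 to 18.6 (replicate 2) and 8.88 to 13.4 (replicate 1), and their summits lay 1 to 134 bp apart between the lists. The first was at 34086351 to 34087074 on chromosome 13, with 89 fragments in replicate 2 (95% interval 71.5 to 110) and 67 in replicate 1 (51.9 to 85.1). It held rank 17 in the whole list of replicate 2 and rank 16 in that of replicate 1.

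The next leading regions were of similar strength. The region at 39003128 to 39003601 on chromosome 10 had 88 fragments in replicate 2, at a fold of 18.4, and 62 fragments in replicate 1, at a fold of 13.4. Another region of chromosome 13, at 31638970 to 31639425, had folds of 17.2 (replicate 2) and 12.1 (replicate 1). On chromosome 9, the region at 38476118 to 38476672 had folds of 16.95 (replicate 2) and 11.7 (replicate 1). These 4 lay between 69.2% and 77.2% of the length of their chromosome, on the upper flank.

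The remaining 6 lay on both flanks and, in 1 case, in the core. On the upper flank were 35315284 to 35315720 on chromosome 20, with folds of 15.5 (replicate 2) and 10.7 (replicate 1), and 26947438 to 26947877 on chromosome 11, with 13.9 (replicate 2) and 9.80 (replicate 1). On the lower flank were 10079041 to 10079657 on chromosome 14, with folds of 15.3 (replicate 2) and 8.88 (replicate 1), and 11712028 to 11712507 on chromosome 12, with 14.4 (replicate 2) and 10.7 (replicate 1). The lower flank also held the wide region of chromosome 2 given above, with 11.9 in either replicate. The core region was at 25823682 to 25824100 on chromosome 2, at 53.9% of the length, with 67 fragments in replicate 2 and 45 in replicate 1. Its nearest neighbour in replicate 2 lay 1637 kb away, so it was strong and solitary.

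The core held strong regions, though few. The strongest core region of replicate 2, picked after its values were seen, was at 23204275 to 23204719 on chromosome 13. It had a fold of 17.4 and 83 fragments in replicate 2 (95% interval 66.1 to 103), and a fold of 6.79 and 32 fragments in replicate 1 (21.9 to 45.2). That was the largest ratio between the replicates among the interior regions called in both, at 2.59. A region at 26329654 to 26330046 on chromosome 20, also picked after its values were seen, had 74 fragments in replicate 2 and 43 in replicate 1, with its nearest neighbour 1362 kb away.

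The regions nearest to the exact middle of their chromosomes did not exceed the interior median of 30 fragments in replicate 2. The 5 closest lay on chromosomes 15, 9, 20, 13 and 17, between 49.5% and 50.5% of the length. They had 26, 24, 22, 28 and 30 fragments in replicate 2, and replicate 1 called none of them. The one on chromosome 17 had a fold of 6.41, against an interior median of 6.20. For the core as a whole, replicate 1 called 38 of 92 regions (41.3%, 95% interval 31.1 to 52.1%), and for the flanks 137 of 344 (39.8%, 34.6 to 45.2%). The core had a median fold of 6.06 and the flanks one of 6.20. The core as a whole was thus not set apart from the flanks by these values, and the 5 regions nearest to the middle do not stand for it.

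Replicate 1 called 175 of the 436 interior regions (40.1%, 95% interval 35.5 to 44.9%), with an overlap of at least 1 bp. It called 433 of the 1000 outer regions (43.3%, 40.2 to 46.4%), and 42.3% of all regions of replicate 2 with Chr names. The interior share is close to that background. Read the other way, replicate 2 called 175 of the 185 interior regions of replicate 1 (94.6%, 90.3 to 97.4%) and 433 of its 463 outer regions (93.5%, 90.9 to 95.6%), against 93.8% of all its regions with Chr names. The low share in the first direction and the high share in the second go with the lengths of the lists.

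Whether an interior region of replicate 2 recurred in replicate 1 went with its number of fragments in replicate 2. Of the interior regions with over 60 fragments in replicate 2, replicate 1 called 22 of 22, and of the outer ones 56 of 56. In the class of 41 to 60 fragments it called 71 of 77 interior (92.2%) and 158 of 172 outer regions (91.9%). In the class of 31 to 40 fragments it called 48 of 103 interior (46.6%, 36.7 to 56.7%) and 121 of 228 outer regions (53.1%, 46.4 to 59.7%). In the class of 26 to 30 it called 24 of 116 interior (20.7%, 13.7 to 29.2%) and 66 of 232 outer regions (28.4%, 22.7 to 34.7%). At 20 fragments or fewer it called 0 of 19 interior (0 to 17.6%) and 8 of 56 outer regions (14.3%). The interior share was the lower in 3 of these classes, the higher in the class of 41 to 60 and in that of 21 to 25, and equal in the top class, with intervals that overlapped in each. At the outer shares by class, 192 of the interior regions would have been called (44.1%), which lies inside the interval of the measured share.

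**Figure D4:**
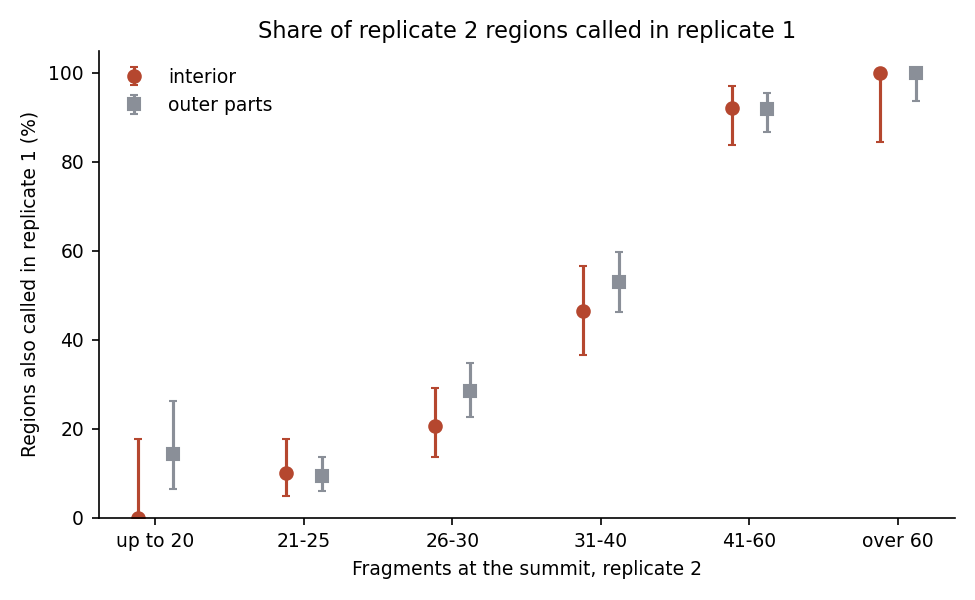
Share of replicate 2 regions that replicate 1 also called (vertical axis, %) by the number of fragments at the summit in replicate 2 (horizontal axis, 6 classes), for interior (red circles) and outer regions (grey squares). Bars are exact 95% binomial intervals, which overlap between the sets in each class, and both sets reach 100% above 60 fragments.

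The 261 interior regions that replicate 1 did not call were mostly weak. Their median was 26 fragments and a fold of 5.58, and 200 of them (76.6%) had at most 30 fragments. Only 6 had over 40. The 5 strongest by q-value included a pair on chromosome 8, at 14383962 to 14384351 with 50 fragments and at 14568148 to 14568493 with 42. These are neighbours in replicate 2, 184 kb apart. The others were at 32957447 to 32957785 on chromosome 13 with 48 fragments, at 20704032 to 20704390 on chromosome 6 with 41, and at 12954640 to 12955002 on chromosome 15 with 41. The chromosome with the lowest share was chromosome 7, where replicate 1 called 2 of 14 interior regions (14.3%). The share was 40.1% of all interior regions and 42.3% of all regions of replicate 2 with Chr names. Of the 49 outer regions of chromosome 7, replicate 1 called 18 (36.7%). Its interior regions also had the lowest median fold of the 20 interiors in replicate 2, at 4.96. As the lowest of 20 small counts, this share is not shown to be a trait of chromosome 7.

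Conversely, 10 interior regions of replicate 1 were not called in replicate 2. Of these, 4 stood on a high local background, with 192 to 235 fragments and folds of 1.43 to 1.88. The other 6 had 18 to 23 fragments, near the fewest at which a region was called. One of them lay at 14087649 to 14087957 on chromosome 8, 34.2 kb from an interior region of replicate 2. By class of fragments in replicate 1, the regions with over 60 recurred the least. Replicate 2 called 2 of the 6 interior and 13 of the 23 outer regions of that class. High local background held for 4 of these 6 interior regions and, counted apart from the calls, for 13 of these 23 outer regions. Many fragments in this class thus often went with a high background.

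The 175 interior regions called in both lists held more fragments in replicate 2. In that list they had a median of 41 fragments and a fold of 8.68, and in replicate 1 a median of 29 fragments and a fold of 6.18. The number was higher in replicate 2 for 156 regions, lower for 16 and equal for 3, with a median ratio of 1.39. For the 433 outer regions called in both lists the median ratio was 1.35, so the shift was not limited to the interior. Among interior regions the lowest ratio was 0.793, at 23118292 to 23118608 on chromosome 13, with 23 fragments in replicate 2 and 29 in replicate 1. That region lay 86 kb from the region of the same chromosome with the highest ratio, and the Poisson intervals of its values overlapped.

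Across these 175 regions fold enrichment in the lists had a Spearman rho of 0.57 and, on log2 values, a Pearson r of 0.61. Over the outer regions called in both lists rho was 0.64 and r was 0.74. These are descriptions across regions of the same pair of lists. The summits of the interior pairs lay a median of 28 bp apart, and 161 of the 175 (92.0%) lay within 100 bp. For the outer pairs the median was 30 bp, with 92.8% within 100 bp. The distances between summits were thus close in both sets.

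**Figure D5:**
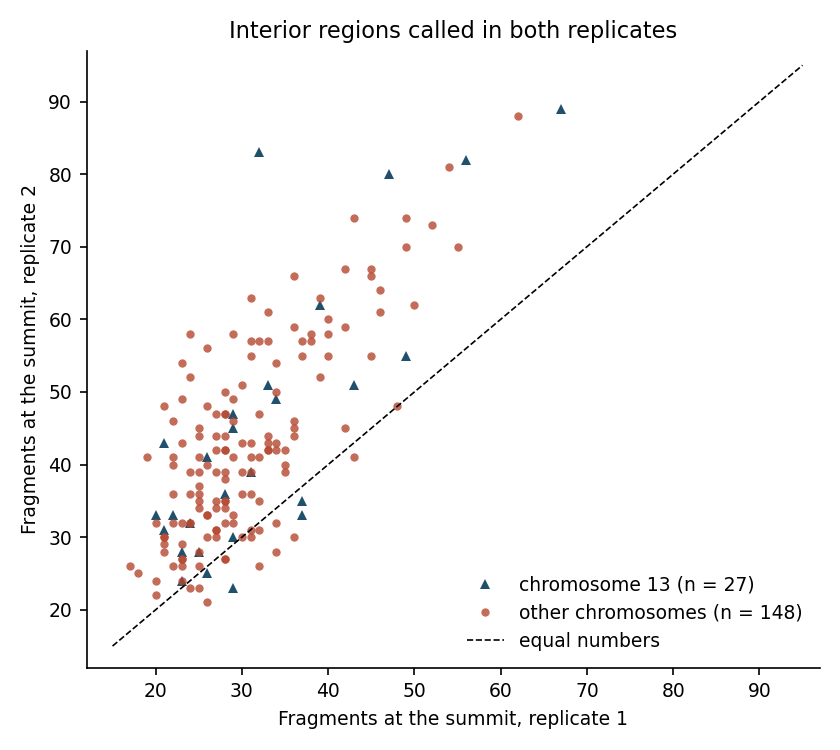
Fragments at the summit in replicate 2 (vertical axis) against replicate 1 (horizontal axis) for the 175 interior regions called in both lists, with the 27 of chromosome 13 as blue triangles and the 148 of other chromosomes as red circles. Most points (156) lie above the dashed line of equal numbers, and the triangle at 83 against 32 fragments is the largest ratio.

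Close neighbours were few among interior and outer regions, and the interior had the lower share in both lists. In replicate 2, 34 of the 436 had another called summit within 10 kb (7.80%, 95% interval 5.46 to 10.7%), against 112 of the 1000 outer regions (11.2%, 9.31 to 13.3%) and 10.2% of all regions with Chr names. In replicate 1 the numbers were 10 of 185 interior (5.41%, 2.62 to 9.72%) and 56 of 463 outer regions (12.1%, 9.27 to 15.4%), and again 10.2% of all. The median distance to the nearest region was 201 kb in the interior and 95.5 kb in the outer parts in replicate 2, and 643 kb in the interior and 234 kb in the outer parts in replicate 1. The interior share of regions with a close neighbour was below that of all regions in both lists. The share of all regions lies inside the interior interval in replicate 2 but just above it in replicate 1. Density was also lower in the interior, and its part in these shares and distances was not tested.

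All of the close interior neighbours were pairs. The 34 regions formed 17 pairs on 10 chromosomes, 4 of them on chromosome 13, and no run of 3 or more was found. The gaps ran from 953 to 8164 bp, and 7 pairs were within 2 kb. Both members were called in replicate 1 in 5 pairs, 1 member in 7 and neither in 5. For comparison, replicate 1 called 40.1% of all interior regions and 42.3% of all regions of replicate 2 with Chr names. With 17 pairs, no difference in recurrence between paired and other regions is shown. In the closest pair, on chromosome 9, the regions at 38081183 to 38081465 and at 38082082 to 38082386 had 30 and 23 fragments in replicate 2, and replicate 1 called only the weaker, with 25. In the next, on chromosome 17, those at 11385970 to 11386396 and at 11387035 to 11387367 had 58 and 35 fragments, and replicate 1 called the stronger, with 38. In the third, on chromosome 2, those at 36214772 to 36215004 and at 36216026 to 36216407 had 24 and 32, and replicate 1 called the stronger, with 24. Of each of these 3 pairs, replicate 1 called 1 member. The first leading region of chromosome 20 was also 1 of a pair, 1372 bp from its neighbour.

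High local background was rare in both sets, with interior shares near those of all regions. A region was counted so where the background recovered from its deposited values was over 2 times the lowest of its list. This held for 1 of 436 interior regions in replicate 2 (0.229%, 95% interval 0.00581 to 1.27%), for 7 of 1000 outer regions and for 0.557% of all with Chr names. In replicate 1 it held for 4 of 185 interior (2.16%, 0.592 to 5.44%) and 15 of 463 outer regions (3.24%), and for 2.93% of all. The 1 interior region of replicate 2 was at 25444559 to 25444940 on chromosome 11, with 39 fragments over a background of 9.02 and a fold of 3.99. Replicate 1 called it too, with 30 fragments and a fold of 6.61.

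The bounds of the interior are fixed positions, and called regions lay close to each of them on either side. In replicate 2 the density went from 2.25 to 1.22 regions per Mb between the bins that meet at 20%. Between the bins that meet at 80% it went from 1.12 to 2.08. Just inside the lower bound were regions at 20.10% of chromosomes 5 and 6, with 39 and 31 fragments, and just outside it regions at 19.8% of chromosomes 8 and 6, with 35 and 20. Just inside the upper bound were regions at 79.99% of chromosome 15 and 79.97% of chromosome 19, with 29 and 34 fragments, and just outside it regions at 80.08% of chromosome 3 and 80.10% of chromosome 20, with 30 and 56.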

How the data were processed

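Bowtie 0.12.7 and MACS2 are the tools that the submitters' processing notes name. The sources used here do not give the settings, the genome build or the pooling. The deposited peak lists give, for each region, the authors' fold enrichment (a ratio), −log10 p-values and q-values, and a score that was not used. MACS2 sets fold to the fragment count plus 1 over the local background plus 1, and the p-value to a Poisson upper tail. With both solved for each row, a whole number of fragments matched the −log10 p-value of the authors within 0.001 in 100% of rows. This step, overlaps and distances were checked on made-up data (Python 3.11.15, scipy 1.17.1). Positions are printed from 1.

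Named are the 10 regions with the best worse rank in both lists, the 5 strongest not called in replicate 1, the 2 nearest each bound on either side, the 5 nearest the middle, the 3 closest pairs, the 3 widest, those on high background, and the 3 densest and 3 sparsest interiors. Members and comparisons were chosen with earlier results of these data known. Leaving out chromosome 13 was chosen after seeing the data, and the other alternatives are given below.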

Additional observations from a re-analysis of the deposited data

How the results depend on the processing

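Of 67 alternative values, 43 stayed within the spread of the reported value, which is the SD over the replicates for ratios and the 95% interval for shares and rho. That SD rests on 2 values, the ratio of each replicate. The ratios of replicate 1 alone therefore count as moved by construction. Bounds of 25 to 75%, 30 to 70% and 10 to 90% moved the interior share by construction, to 21.4%, 15.0% and 58.8%, and the density ratio to 0.272, 0.266 and 0.356. With the same bounds the width ratio was 1.01, 0.997 and 0.995, against 0.973 as reported. With bounds of 10 to 90% the ratios of median fold and of fragments were each 1.03. The list of replicate 1 alone gave a density ratio of 0.266, 1.04 for fold and for fragments, a width ratio of 1, 94.6% called in the other list, 5.41% with a neighbour and 2.16% on high background. Without chromosome 13 the interior share was 27.6% and the density ratio 0.254. Cutting the list of replicate 2 to the length of replicate 1 kept its strongest regions by q-value. The share of interior regions called in replicate 1 was then 69.8% (139 of 199). Regions with more fragments recurred more often, as given above. Neighbours within 5 kb and 50 kb gave 5.05% and 21.3%, and over 3 times the lowest background stood 0 of 436 regions. The correlation of fold enrichment ran from a rho of 0.55 to 0.59.

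No called summit had fewer than 16 fragments, so weaker binding is outside the reach of these lists. No paired analysis was possible because there is only 1 group.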
